A study of Mus musculus with 6 samples.

Results

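The genes described here are 10 transcription factors that divide the embryonic neural tube into domains, namely Nkx2-2, Nkx2-9, Nkx6-1 and Nkx6-2 of the Nkx family and Pax2, Pax3, Pax5, Pax6, Pax7 and Pax8 of the Pax family. They were found by exact gene symbol in the platform annotation of the array. Of the 10 genes, 9 had at least 1 probe set, with 18 probe sets in all out of 45037 that were not controls. No probe set was listed under Pax2, which was not analysed here. A probe set was tested if its signal exceeded the 40th percentile of its array, a signal of 10.2 to 15.8, on at least 3 of the 6 arrays. That left 11 probe sets of 8 members, among 12044 genes tested on 1 probe set each. Nkx2-9 exceeded this level on 1 array and was not tested.

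Cells of the ventral mesencephalon of mouse embryos at embryonic day 12.5 were sorted by GFP fluorescence, and their messenger RNA was measured on Affymetrix-type arrays, 1 per sample. The Ngn2-GFP positive group held 3 arrays of GFP-positive cells from CD1/129 mice in which GFP reports Neurog2 (Ngn2), a proneural gene, and the design text describes these cells as holding nearly all midbrain dopaminergic progenitors. The Lmx1a-GFP negative group held 3 arrays of GFP-negative cells from C57BL/6 mice in which GFP reports Lmx1a, a dopaminergic progenitor factor, and served as the non-dopaminergic comparison. The replicates in each group are described as biological. The groups differed at once in reporter line, strain and sort gate, and these cannot be told apart. Both were sorted from tissue dissected as ventral.

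As background, the neural tube is patterned from below by Sonic hedgehog, secreted by the notochord and floor plate, and from above by signals of the roof plate. Nkx2-2, Nkx2-9, Nkx6-1 and Nkx6-2 are homeodomain factors induced by Sonic hedgehog in ventral progenitors, whereas Pax3 and Pax7 mark dorsal progenitors and Pax6 marks intermediate ones, and Nkx2-2 and Pax6 repress each other's domains in the spinal cord. Pax2, Pax5 and Pax8 are close relatives known for their part in setting up and maintaining the midbrain-hindbrain boundary.

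Promoters are shown for the members that differed between the groups, Nkx2-2 and Pax6, to show whether the sequence at their starts has motifs in common. Each window runs from 250 bases before to 50 bases after a RefSeq transcription start on GRCm38.p6, 5′ to 3′ on the strand of the gene. Pax6 has 2 listed starts. Capitals mark matches to 4 motifs searched on both strands, the Gli site GACCACCCA, the Nkx2 site TNAAGTG, the homeodomain core TAATTA and the E-box CAGATG of the type bound by Neurog2.
Nkx2-2, chr2:147186353-147186652, minus strand: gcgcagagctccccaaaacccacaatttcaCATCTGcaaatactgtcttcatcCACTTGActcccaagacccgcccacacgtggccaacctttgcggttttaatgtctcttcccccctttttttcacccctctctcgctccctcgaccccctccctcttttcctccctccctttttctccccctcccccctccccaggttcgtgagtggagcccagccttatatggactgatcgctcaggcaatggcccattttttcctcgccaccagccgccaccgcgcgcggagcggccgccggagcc
Pax6, chr2:105668646-105668945, plus strand: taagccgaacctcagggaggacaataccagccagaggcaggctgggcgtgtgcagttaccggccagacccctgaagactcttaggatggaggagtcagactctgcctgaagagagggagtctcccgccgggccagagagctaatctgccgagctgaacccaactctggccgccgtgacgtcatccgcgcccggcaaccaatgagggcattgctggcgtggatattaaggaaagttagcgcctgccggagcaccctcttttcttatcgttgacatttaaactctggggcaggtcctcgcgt
Pax6, chr2:105682213-105682512, plus strand: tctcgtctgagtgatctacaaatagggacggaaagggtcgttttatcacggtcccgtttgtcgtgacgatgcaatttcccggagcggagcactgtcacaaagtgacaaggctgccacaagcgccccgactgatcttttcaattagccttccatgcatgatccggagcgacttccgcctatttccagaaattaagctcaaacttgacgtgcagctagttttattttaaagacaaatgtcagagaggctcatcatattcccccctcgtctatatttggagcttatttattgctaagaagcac

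The Nkx2-2 window held 1 match each to the E-box, from base 31 of the window, and to the Nkx2 site, from base 54, both on the opposite strand and without overlap. Neither Pax6 window held any of the 4 motifs, nor did the windows of the other 7 members with an entry. Among 32851 promoter windows of the same length, 17.2% held the E-box, 11.5% the Nkx2 site, 5.29% the homeodomain core and 0.253% the Gli site. The Nkx2-2 window had 17 CG dinucleotides, more than in 68.6% of windows. The Pax6 windows had 18 and 16, more than in 70.3% and 67% of windows, where the median over all windows was 7. Those of Nkx6-1 and Nkx6-2, which did not pass the test, had 40 and 32, more than in 96.1% and 90.5% of windows.

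Ahead of the members, the arrays were checked as a whole. Hybridization spike-in controls averaged 2293 and 2352 on positive replicates 1 and 2. They averaged 5018 on positive replicate 3, and the negative arrays lay at 4254 to 6560, so a fit with this split as a block rests on positive replicate 3 alone. Markers of several other cell types moved with the groups, whereas neuron, mesenchyme and endothelial markers overlapped between them. Summed neuron signal was 7635 to 13382 in positive cells and 10899 to 13371 in negative cells. Mesenchyme and pericyte signal was 58.9 to 115 in positive cells and 88.1 to 114 in negative cells. Endothelial signal was 43.0 to 54.0 in positive cells and 13.6 to 44.3 in negative cells, with 5 of 6 genes dim in each group. Summed erythroid signal was 301 to 613 in positive cells, against 7375 to 14436 in negative cells, over 6 genes, of which 4 were dim on all positive and 2 on all negative arrays. Summed microglia and macrophage signal was 29.3 to 47.1 in positive cells, against 228 to 686 in negative cells, over 8 genes, of which 6 were dim on all positive arrays and 0 on all negative ones. Summed midbrain GABAergic signal was 2141 to 2328 in positive cells and 5033 to 5341 in negative cells. Neural progenitor signal was 4109 to 6586 in positive cells and 7523 to 9200 in negative cells, and dopaminergic signal was 3045 to 4489 in positive cells and 1072 to 1409 in negative cells, each over 6 genes. Of the 6 neural progenitor genes, 1, Fabp7, passed as lower in limma. The values of Sox2, Nes, Hes5 and Vim overlapped between the groups, so the summed signal does not stand for every gene of that list. The part of these differences in the results on the members was not tested, and in sorted populations fewer cells of a type cannot be told apart from less RNA per cell.

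Of the 8 tested members, Nkx2-2 and Pax6 were lower in Ngn2-GFP positive cells and none was higher at an adjusted p under 0.05 in limma. Over all 12044 genes tested, 0.639% were lower and 0.423% higher by the same rule. At an unadjusted p under 0.05 there were 4 members, Nkx2-2, Pax6, Pax3 and Pax8, where 10.8% of all genes were. The 3 positive and 3 negative values did not overlap for 5 of the 8 members, which 15.5% of all genes showed. Pax3, which is in both counts, entered the test through its negative arrays alone. That selection favours a difference, so Pax3 adds no support to either count. The median log2 difference, positive minus negative, was -0.07 over the tested members and 0.03 over all genes.

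**Figure D1:**
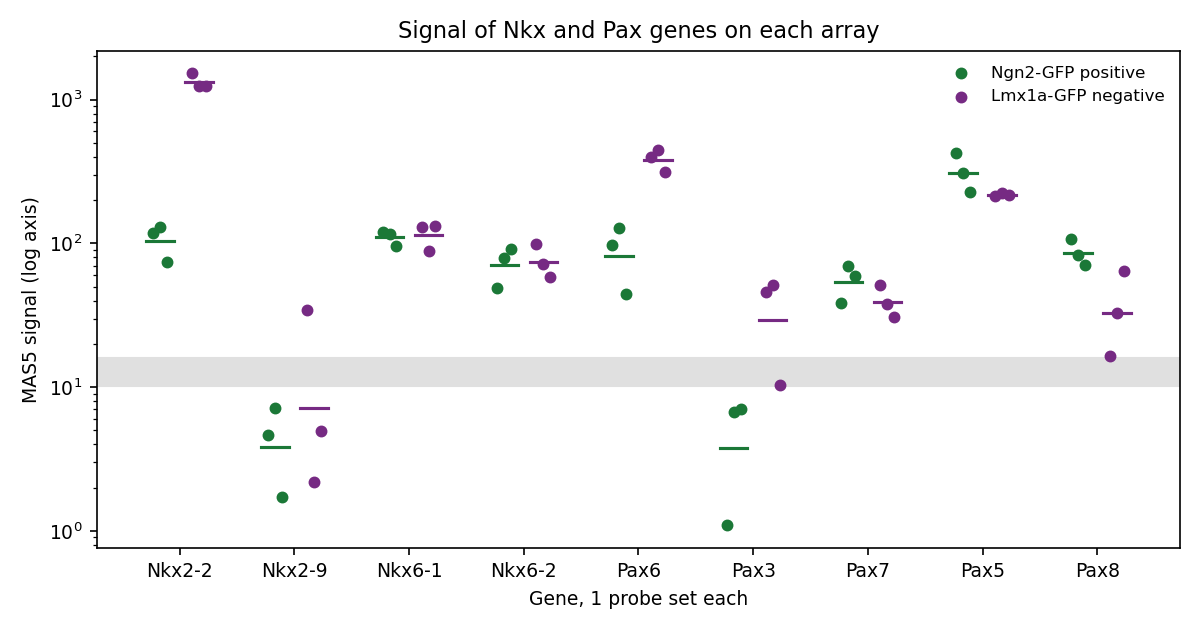
Signal of the 9 members with a probe set on each array (log axis; 1 point per array, positive arrays left of negative ones, bars at the geometric mean of 3 with values under 1 set to 1, grey band at the range of the 40th percentile). The groups stand furthest apart for Nkx2-2, at 73.8 to 131 in positive cells, against 1249 to 1522 in negative cells, while Nkx6-1 and Nkx6-2 overlap and Nkx2-9 lies below the band on 5 of 6 arrays.

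Among the ventral Nkx factors, Nkx2-2 specifies the progenitors next to the floor plate in the spinal cord. It gave signals of 118, 131 and 73.8 in positive cells, against 1522, 1249 and 1249 in negative cells. The negative arrays lay close together and every positive array was far below them. The log2 signal averaged 6.71 ± 0.44 in positive and 10.38 ± 0.17 in negative cells (SD, n = 3 each), a 12.8-fold lower level in positive cells (log2 difference -3.67, SE 0.24, 95% interval -4.20 to -3.15, adjusted p = 4.83e-06 in limma). By p-value it stood at place 4 among the 5739 genes with a negative difference. It kept the call in all 16 alternative settings, at -4.18 to -3.32, and with the spike-in split as a block it was -4.18 (adjusted p = 0.000117 in limma). Nkx2-2 signal was lower on the 3 positive arrays but still above the filter level on each of them.

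Nkx2-9 is a close relative of Nkx2-2 that in the spinal cord also lies next to the floor plate. It had signals of 4.66, 7.18 and 1.72 in positive cells, against 34.2, 2.18 and 4.96 in negative cells. Of the 6 arrays, negative replicate 1 alone exceeded its filter level, and no fold change is given.

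Nkx6-1 and Nkx6-2 are related repressors, and Nkx6-1 spans a broader ventral field that includes the progenitors of the red nucleus. Nkx6-1 had signals of 120, 116 and 95.6 in positive cells, against 130, 88.9 and 131 in negative cells. Nkx6-2 had signals of 48.7, 78.7 and 90.9 in positive cells, against 99.3, 71.8 and 58.2 in negative cells. Values of the groups overlapped for both genes. The log2 differences were -0.07 (SE 0.26, 95% interval -0.64 to 0.51) for Nkx6-1 and -0.08 (SE 0.34, 95% interval -0.81 to 0.64) for Nkx6-2, each at adjusted p = 0.952 in limma. Those intervals leave room for a difference of less than 2-fold in either direction, far short of the size seen for Nkx2-2. The sign of both was not stable, and each turned positive in 3 of 16 alternative settings.

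Because Nkx2-2 and Nkx6-1 are induced in overlapping ventral fields, their change was compared directly within each array. Log2 Nkx2-2 minus log2 Nkx6-1 was -0.02, 0.18 and -0.37 on positive arrays, against 3.54, 3.81 and 3.25 on negative arrays. These values include the unequal brightness of the probe sets, and only their shift between groups is read. The shift was -3.61, a 12.2-fold lower ratio in positive cells, with p = 0.1 in an exact two-sided permutation test over the 6 arrays, the smallest p that 3 against 3 allows (0.167 adjusted over the 5 pairs compared). The ratio of Nkx6-1 to Nkx6-2 shifted by 0.02 (exact permutation p = 1), with within-array values of 1.30, 0.56 and 0.07 in positive cells, against 0.39, 0.31 and 1.17 in negative cells. Its sign turned without positive replicate 1 (-0.31), negative replicate 1 (-0.10) and negative replicate 2 (-0.14).

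**Figure D2:**
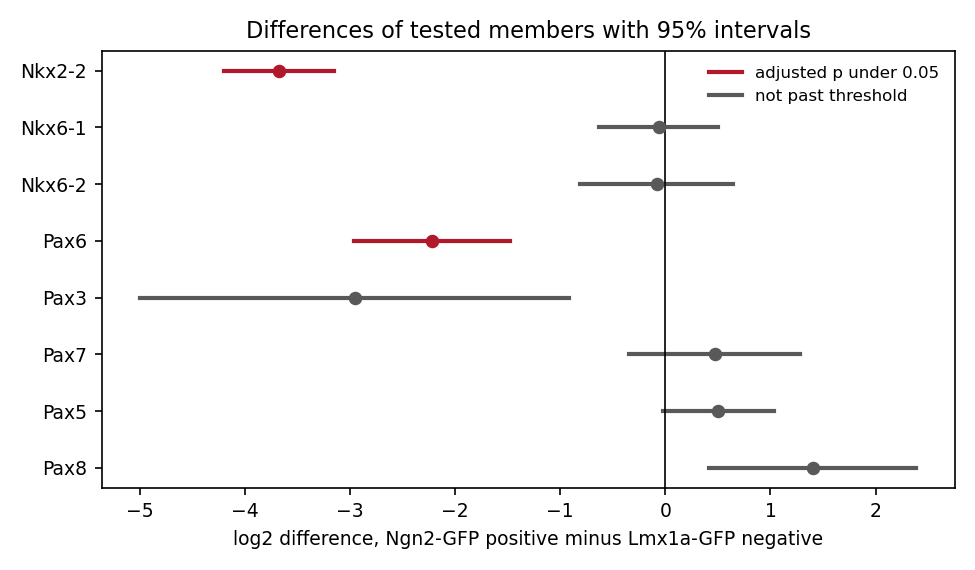
Log2 difference of each tested member, positive minus negative, with its unadjusted 95% interval from limma (n = 3 arrays per group). Nkx2-2 at -3.67 and Pax6 at -2.22 passed the threshold, the intervals of Nkx6-1, Nkx6-2, Pax7 and Pax5 include 0, and that of Pax3 is the widest.

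Gene order gives Nkx2-2 and Nkx2-9 matching neighbours. In the GRCm38 gene table the nearest protein-coding genes were Nkx2-4 and Pax1 beside Nkx2-2, and Nkx2-1 and Pax9 beside Nkx2-9. These 4 genes, looked at here after their values were seen, did not reach the filter level on 3 arrays. The brightest probe set of Nkx2-4 reached 9.79 at most in positive cells, against 6.20 in negative cells. Pax1 had 1.99, 14.1 and 11.7 in positive cells, against 4.22, 9.08 and 4.81 in negative cells. Of these 6 genes in 2 groups of neighbours, Nkx2-2 was the one that reached the filter level on all 6 arrays. Around the 10 members, 9 of 20 nearest protein-coding genes were tested and 0 passed in limma, including Rcn1 at -0.15 and Elp4 at -0.01 beside Pax6. Over all genes tested 0.639% were lower and 0.423% higher, so 9 genes are too few for the 0 to be read as a result. Hif1an and Slf2, among those tested, lie beside Pax2, which had no probe set.

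Pax6, a paired-box and homeodomain factor of progenitors that is prominent in forebrain, hindbrain and spinal cord, was the other lower gene. Its brightest probe set had signals of 97.5, 129 and 44.3 in positive cells, against 397, 447 and 315 in negative cells. The groups did not overlap, and positive replicate 3 was the lowest array. Log2 signal averaged 6.36 ± 0.80 in positive and 8.58 ± 0.26 in negative cells (SD, n = 3 each), which is 4.65-fold lower in positive cells (log2 difference -2.22, SE 0.34, 95% interval -2.96 to -1.47, adjusted p = 0.00698 in limma). It stood at place 29 by p-value among genes with a negative difference. The call held without any 1 array, at -2.54 to -1.77, and was lost without the variance trend (adjusted p = 0.11) and without the filter on dim probe sets (adjusted p = 0.109).

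Pax6 had 5 probe sets, 3 of them tested. In a fit on all 27738 tested probe sets, of which 0.35% were lower, these 3 were lower at -1.99, -1.79 and -2.22 (adjusted p = 0.0171, 0.0265 and 0.00984 in limma). The probe set 1419271_at had 64.7, 31.4 and 53.4 in positive cells, against 139, 194 and 251 in negative cells. The probe set 1437816_at had 44.6, 24.9 and 41.4 in positive cells, against 120, 134 and 118 in negative cells. Another, 1425960_s_at, was under the filter level on all positive arrays, at 1.14, 0.867 and 0.844 in positive cells, against 23.7, 5.56 and 13.97 in negative cells. The last, 1456342_at, was dim on 5 of 6 arrays and its values overlapped, at 8.90, 7.51 and 12.9 in positive and 9.41, 2.64 and 3.77 in negative cells. So each of the 3 tested probe sets had every positive value under every negative one, as did 5.98% of all tested probe sets. The untested 1425960_s_at did so too, but it was dim on all positive arrays and is outside that share. The order of the positive arrays was not shared: replicate 3 was lowest on the brightest probe set, while replicate 2 was lowest on 1419271_at and 1437816_at. With the spike-in split as a block the brightest probe set passed at -3.11 (adjusted p = 0.00278 over all probe sets), whereas 1419271_at (-1.83, adjusted p = 0.384) and 1437816_at (-1.58, adjusted p = 0.5) did not. Leaving out 1 array also ended calls in this fit over all probe sets. The brightest probe set was lost without negative replicate 1 (adjusted p = 0.055) or 2 (0.0713), 1419271_at without positive replicate 2 (0.0729) or negative replicate 2 (0.0946) or 3 (0.0996), and 1437816_at without positive replicate 2 (0.134) or negative replicate 1 (0.0956), 2 (0.15) or 3 (0.0939). None of the 3 passed without the filter (0.156 to 0.184) or without the variance trend (0.141 to 0.194).

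**Figure D3:**
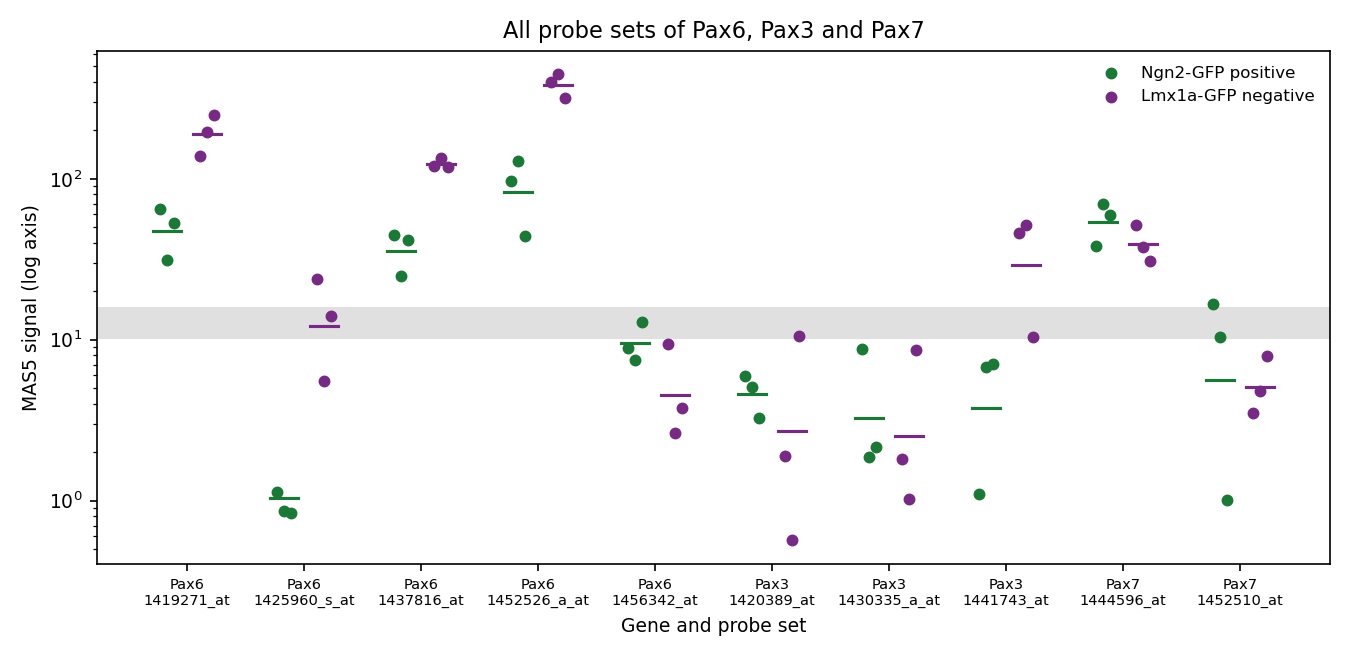
Signal of every probe set of Pax6, Pax3 and Pax7 on each array (log axis; positive arrays left of negative ones, bars at the geometric mean with values under 1 set to 1, grey band at the range of the 40th percentile). Of the 5 Pax6 probe sets, the 3 tested have every positive value under every negative one, as did 5.98% of all tested probe sets. Another Pax6 probe set does so too, but it is untested, dim on all positive arrays and outside that share. Of 3 Pax3 probe sets, 1 separates the groups, but it entered the test through its negative arrays alone, which favours a difference. The other Pax3 probe sets lie below the band on most arrays.

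Pax3 and Pax7 are close relatives that mark dorsal neural tube, and also neural crest and muscle precursors. Pax3 had 3 probe sets with low values. The tested one, 1441743_at, had 1.09, 6.75 and 7.10 in positive cells, against 45.9, 51.6 and 10.4 in negative cells. It was dim on all positive arrays, and on negative replicate 3 it exceeded the filter level of 10.2 only just, so it is given as at least 2.25-fold lower in positive cells (adjusted p = 0.242 in limma), short of the threshold. The bound sets the mean of the negative arrays against the mean of, per positive array, the higher of its signal and its 40th percentile. The other probe sets did not separate the groups. 1420389_at had 5.98, 5.11 and 3.24 in positive cells, against 1.90, 0.568 and 10.6 in negative cells, and 1430335_a_at had 8.73, 1.86 and 2.15 in positive cells, against 1.81, 1.03 and 8.65 in negative cells. These probe sets exceeded the filter level on at most 1 negative array, so no order is read from them.

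Pax7 had 38.3, 69.8 and 59.3 in positive cells on its brighter probe set, against 51.4, 37.7 and 30.8 in negative cells. The values overlapped, and the log2 difference was 0.47 (SE 0.38, 95% interval -0.34 to 1.28, adjusted p = 0.672 in limma). Its other probe set, 1452510_at, had 16.6, 10.4 and 1.01 in positive cells, against 3.48, 4.79 and 7.89 in negative cells, and was not tested. Skeletal muscle markers were dim on every array, with 4 of 4 genes under the filter level in both groups. Their summed signal was 7.41 to 13.3 in positive cells, against 14.0 to 19.9 in negative cells. Neural crest and glia precursor markers summed to 18.1 to 31.1 in positive cells, against 26.8 to 39.6 in negative cells, over 3 genes, of which 2 were dim on all positive and 1 on all negative arrays.

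The ratio of Pax6 to Pax7 within each array was compared as that of the Nkx genes was. Log2 Pax6 minus log2 Pax7 was 1.35, 0.89 and -0.42 on positive arrays, against 2.95, 3.57 and 3.36 on negative arrays. The shift of -2.69 had p = 0.1 in the exact two-sided permutation test, the smallest possible (0.167 adjusted over 5 pairs). The pairs of Pax3 with Pax7 and with Pax6 were among the 5, but Pax3 was under the filter level on all positive arrays, so no shift is read from them. The pair Nkx2-2 and Nkx2-9 was not computed because Nkx2-9 was not tested.

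Both measured boundary factors had positive differences, and neither passed the test. Pax5 had 426, 307 and 227 in positive cells, against 215, 222 and 218 in negative cells. All positive values lay above the negative ones, with replicate 3 close to them. The log2 difference of 0.51 (SE 0.24, 95% interval -0.03 to 1.04) did not pass (adjusted p = 0.487 in limma), and with the spike-in split as a block, where positive replicate 3 alone carries the comparison, it was 0.06 (adjusted p = 0.996). The dimmer Pax5 probe set, 1454401_at, had 84.4, 65.3 and 53.6 in positive cells, against 44.3, 38.0 and 57.9 in negative cells, and differed by 0.53 (SE 0.34, adjusted p = 0.66 over all probe sets in limma).

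Pax8 had 108, 83.4 and 70.7 in positive cells, against 16.4, 32.9 and 64.0 in negative cells. The groups did not overlap, but negative replicate 3 came near the lowest positive array and the negative arrays spread widely. The log2 difference was 1.40 (SE 0.45, 95% interval 0.42 to 2.38, adjusted p = 0.253 in limma), or 2.64-fold, and did not pass. Over the fits without 1 array it lay at 0.91 to 1.89, and the lowest adjusted p was 0.0835, without negative replicate 3. The second Pax8 probe set, 1446561_at, was not tested, with 18.6, 6.74 and 12.7 in positive cells and 14.5, 11.1 and 8.67 in negative cells, which overlapped. Non-overlapping values in which the positive group was higher occurred in 8.21% of all genes.

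Patterning genes that act with these factors were read from 5 lists, in the same fit. In that fit 0.639% of all genes were lower and 0.423% higher, to be set beside each list count. The lists were chosen with earlier results of these data known, so a count above these shares is description only. Among other Nkx and Pax genes, 11 of 13 had a probe set, 3 were tested and 0 passed in limma, with a median of -0.04 and 1 lower at an unadjusted p under 0.05. The brightest were Nkx2-3 at 0.48 (SE 0.61, adjusted p = 0.799), with the sign turned to -0.10 under the spike-in split, and Nkx1-2 at -2.52 (SE 0.66, adjusted p = 0.131). Nkx1-2 had 3.61, 5.27 and 13.3 in positive cells, against 51.1, 39.0 and 23.9 in negative cells. Positive replicate 3 alone of the positive arrays exceeded its filter level, so the size of the difference is uncertain, and without that array the adjusted p of 0.0333 set the negative arrays against signal under the filter level. Among floor plate and ventral domain genes 1 of 10 tested was higher and 0 lower, with a median of 0.20. The higher one was Foxa1, a forkhead factor of the floor plate and dopaminergic lineage, at 545, 475 and 588 in positive cells, against 215, 302 and 263 in negative cells (1.05, SE 0.21, adjusted p = 0.0313). The call was lost when positive replicate 1 or 2 was left out (adjusted p = 0.152 or 0.0921), and when negative replicate 1, 2 or 3 was (0.13, 0.0524 or 0.0891).

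In the roof plate and dorsal domain list 5 of 14 genes with a probe set were tested and 9 were dim. Meis2, a homeodomain factor with a known role in tectal development in chick, was lower and no gene of this list was higher, with a list median of 0.35. Meis2 had 35.5, 45.3 and 62.0 in positive cells, against 433, 507 and 202 in negative cells (-2.93, SE 0.35, adjusted p = 0.000895), and passed without any 1 array. Of 12 tested midbrain-hindbrain organizer genes, En1 was higher and Otx2 lower, with a median of -0.04. En1, a homeodomain factor required around the boundary, had 504, 529 and 382 in positive cells, against 202, 169 and 177 in negative cells (1.36, SE 0.21, adjusted p = 0.00732, 0.057 without positive replicate 2, 0.0592 without the filter and 0.0852 without the variance trend). Otx2, a forebrain and midbrain factor, had 287, 243 and 249 in positive cells, against 509, 614 and 503 in negative cells (-1.06, SE 0.20, adjusted p = 0.021). Its call was lost when positive replicate 1 or 2 was left out (0.0632 or 0.141), and when negative replicate 1, 2 or 3 was (0.0667, 0.109 or 0.055). The list that holds the partners of Pax5 and Pax8 therefore had calls in both directions.

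In the list of neighbouring forebrain genes, 3 of 7 tested were lower and 0 higher, where 0.639% of all genes were lower. All 7 had negative values (median -0.81), as did 5739 of all 12044 genes (median 0.03). The list was chosen with earlier results of these data known, so these counts are not read as an enrichment. Six3, a factor of the anterior forebrain that is also expressed in midbrain GABAergic precursors, had 15.7, 15.4 and 26.5 in positive cells, against 209, 191 and 168 in negative cells (-3.34, SE 0.33, adjusted p = 0.000182). Barhl2, a diencephalic homeodomain factor, had 61.3, 28.3 and 23.1 in positive cells, against 211, 154 and 142 in negative cells (-2.28, SE 0.37, adjusted p = 0.00932, or 0.0616 without negative replicate 1). Tcf7l2, a Wnt effector of the thalamic region, had 1146, 1247 and 1207 in positive cells, against 2635, 2839 and 2531 in negative cells (-1.15, SE 0.20, adjusted p = 0.0111). Its call was lost in every fit without 1 array except the one without positive replicate 3 (adjusted p = 0.0818 or 0.0701 when positive replicate 1 or 2 was left out, and 0.0667, 0.0779 or 0.0549 when negative replicate 1, 2 or 3 was). Tcf7l2 also fell short under median centring (0.16) and with the mean of probe sets (0.29), and Tcf7l2 and Barhl2 without the filter (0.0656 and 0.109) and without the variance trend (0.0881 for both). Six3 kept its call without any 1 array. With the spike-in split as a block, Six3, Barhl2 and Tcf7l2 passed, and Foxa1, Meis2, En1 and Otx2 did not (adjusted p = 0.208, 0.0875, 0.236 and 0.215 in limma).

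**Figure D4:**
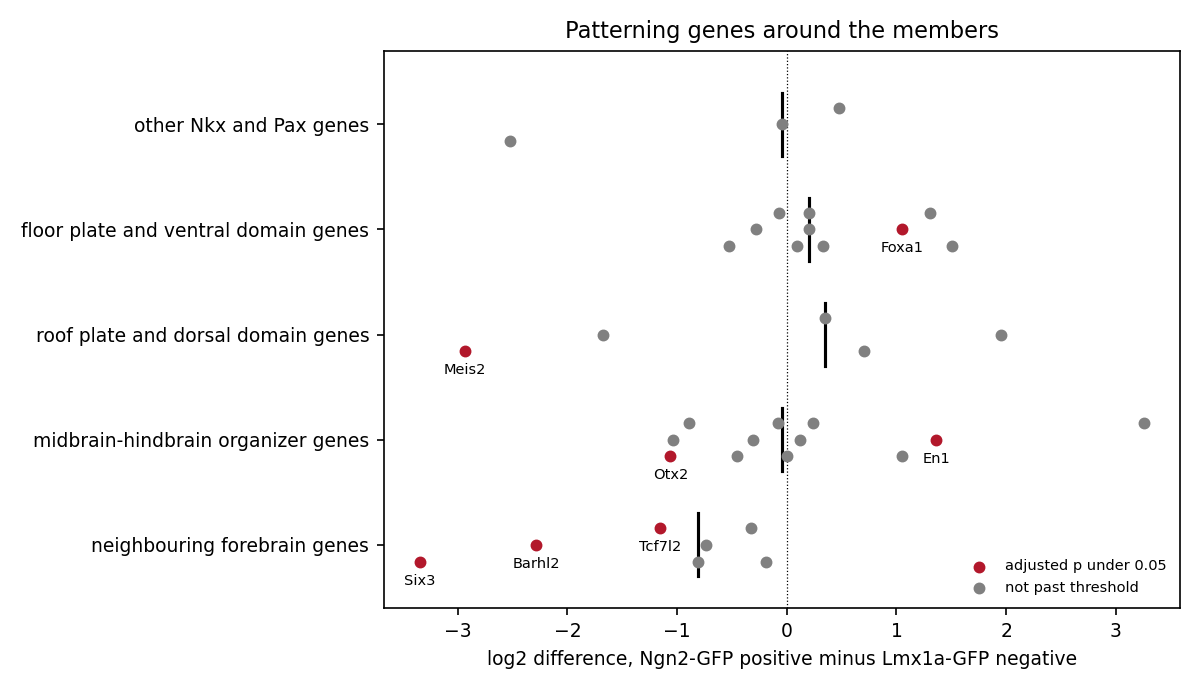
Log2 difference of each tested gene of 5 patterning lists, positive minus negative (1 point per gene, vertical placement within a list is arbitrary, black bars at the list medians). Forebrain genes all lie left of 0 with a median of -0.81, and organizer genes lie on both sides with Otx2 at -1.06 and En1 at 1.36. The lists were chosen with earlier results of these data known.

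The genes whose signal ran most like that of Nkx2-2 over the 6 arrays were Mfsd8, Mef2c, Car2, Hba-x and Myzap, at Pearson correlations of 0.996 to 0.988 across arrays. Of these, Car2, a carbonic anhydrase (-2.41, adjusted p = 0.00156 in limma), and Hba-x, an embryonic alpha-type globin that was dim on all positive arrays (at least 56.1-fold lower, adjusted p = 8.49e-07), were themselves lower in positive cells. For Pax6 they were Dmc1, Plekha7, Stard3, Me2 and Hsd11b2, at 0.993 to 0.981, and none of these 5 passed. The 6 arrays form 2 groups, so a step between the groups alone gives a high correlation, and the groups also differed in erythroid signal as given above.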

How the data were processed

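Biotin-labelled cRNA made from the total RNA of each of the 6 samples was hybridised, per the labels' protocols. The deposited intensity values are linear signals. MAS5, limma and R 2.14.2 are the tools listed in the submitters' processing notes. The 2% trimmed mean of the intensity is 100 on every deposited array, so the arrays carry no information on total RNA per cell. MAS5 presence calls were not analysed here.

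The annotation gave 1 symbol to 34945 of the 45037 non-control probe sets, several to 932 and none to 9160. Entrez IDs of 34741 matched the GRCm38 gene table, which changed 0 symbols. The log2 of the signal was used, with 1 as the lowest signal allowed. The brightest tested probe set by mean log2 signal stood for a gene. The fit used limma 3.58.1 under R 4.3.3, with lmFit and a two-sided moderated test from eBayes with trend, and p-values were adjusted by Benjamini-Hochberg across the 12044 genes. The threshold was 0.05. All tested probe sets were also fitted together. Differences are positive minus negative, and the number of arrays limits their precision. A group was called dim for a probe set that exceeded the 40th percentile on none of its arrays.

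The genes named were all members, from each list at most 4 genes that passed or, failing that, the 2 with the highest signal, and the 5 genes most correlated with each member past the threshold. The members and lists were chosen with earlier results of these data known. The fit was tested on simulated data. Promoter sequences are from the RefSeq table of GRCm38.p6. Python 3.11.15 and matplotlib 3.10.9 were used for the figures.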

Additional observations from a re-analysis of the deposited data

How the results depend on the processing

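The count of 2 lower members held in 14 of 16 alternative settings, and no setting gave a higher one. It was 1, Nkx2-2, without the filter and without the variance trend. The number of genes past the threshold was 128 (51 higher, 77 lower). It was 19 without the filter (3 higher, 16 lower), 42 without the trend (15 and 27) and 34 with the spike-in split as a block (8 and 26). Without positive replicates 1, 2 and 3 it was 78, 57 and 417, and without negative replicates 1, 2 and 3 it was 76, 61 and 70, with 13 to 87 higher and 29 to 330 lower. The number of probe sets past the threshold was 149 in the fit over all probe sets. It was 36, 56, 60 and 98 without the filter, without the trend, with the spike-in block and without suffixed probe sets (_s_at, _x_at and _a_at), and 64 to 701 without 1 array. The number of member probe sets past it was 4, and 1, 1 and 2 in the first 3 of these settings, and 1 to 4 without 1 array. The higher ventral gene count was 0 under median centring, no filter, no trend, the spike-in block and the replicate block (Foxa1, adjusted p = 0.051), and 0 to 1 without 1 array. The lower dorsal count was 0 without the filter, without suffixed probe sets and with the spike-in block. For organizer genes the lower count was 0 under median centring, no filter, no trend, the spike-in block and without suffixed probe sets. The higher organizer count was 0 without the filter and with the spike-in block, 2 with the mean of probe sets, and both counts were 0 to 1 without 1 array. The lower forebrain count was 1 without the filter and without the trend and 1 to 3 without 1 array, and that of other Nkx and Pax genes 0 to 1. Nkx6-2, at -0.27 to 0.18 without 1 array, turned to 0.29 with the spike-in block, to 0.18 without positive replicate 1 and to 0.12 without negative replicate 1, Nkx6-1, at -0.25 to 0.035 without 1 array, to 0.035 without positive replicate 3, 0.026 without negative replicate 1 and 0.029 without negative replicate 3, and Nkx2-3 to -0.10 with the spike-in block. The shift of Pax6 against Pax3, which rests on Pax3 signal under the filter level in positive cells, was 0.74, and it was -1.01 with log2 of the value plus 32 and -0.27 to 1.65 without 1 array, and that of Nkx6-1 against Nkx6-2 was -0.31 to 0.30. The cause of these changes was not tested. Replicate numbers did not pair the arrays, with correlations of deviations of 0.139, -0.0964 and 0.0318 for equal numbers, and the replicate block gave Nkx2-2 and Pax6 again. Signals near the filter level limit Nkx2-9, Pax3 and the dim probe sets.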
